A study of Saccharomyces cerevisiae with 24 samples.

Results

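The amino acid biosynthesis genes of *Saccharomyces cerevisiae* described here were 35 listed enzymes of 5 pathways, namely 4 genes for arginine (*ARG1*, *ARG3*, *ARG4*, *ARG8*), 5 for histidine (*HIS1*, *HIS3*, *HIS4*, *HIS5*, *HIS7*), 7 for lysine (*LYS1*, *LYS2*, *LYS4*, *LYS9*, *LYS12*, *LYS20*, *LYS21*), 11 for the branched-chain amino acids (*ILV1*, *ILV2*, *ILV3*, *ILV5*, *ILV6*, *LEU1*, *LEU2*, *LEU4*, *LEU9*, *BAT1*, *BAT2*) and 8 for the aromatic amino acids (*TRP2*, *TRP3*, *TRP4*, *TRP5*, *ARO1*, *ARO2*, *ARO3*, *ARO4*). They were chosen by name, with 1 probe set per gene (the one with the highest mean log2 intensity), and all 35 were found among the 5449 named genes of one array type and the 5656 of the other. mRNA was measured in 8 growth conditions with 3 arrays each, to follow how yeast cells respond to loss of oxygen, of heme and of the heme-responsive activator Hap1. Every value below is a log2 intensity or a difference of log2 intensities, and a difference of 1 is a 2-fold change.

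Strain L51, used in 6 conditions, lacks its own *HAP1* (*hap1::LEU2*) and carries mutant alleles of *URA3*, *ADE1*, *LEU2*, *HIS4* and *TRP1*. In 4 of them the cells held *HAP1* on a low-copy expression plasmid and are called *HAP1* cells: in air, after 1.5 h without oxygen, after 6 h without oxygen, and after 6 h in air with 400 µM cobalt chloride, a salt used as a mimic of low oxygen. In the other 2 the cells held the empty vector and are called *Δhap1* cells: in air and after 6 h without oxygen. The labels of the aerobic *HAP1* arrays also name a *lacZ* reporter plasmid. The remaining 2 conditions used strain MHY100 (*hem1-Δ100*, with mutant alleles of *ADE1*, *HIS4*, *LEU2* and *URA3*), which cannot make the heme precursor 5-aminolevulinic acid. Heme-deficient cells were fed 2.5 µg/ml of this precursor and heme-sufficient cells 250 µg/ml. Both strains grew in synthetic complete medium, so amino acids were supplied from outside in every condition. The members *HIS4* and *LEU2* are themselves mutant in both strains, and L51 has a further *LEU2* copy at the *hap1* locus, so that *LEU2* RNA from the mutant gene and from this copy cannot be told apart in L51. Hap1 came from a plasmid rather than from its own locus. The study's text also mentions that a replicate was made on a different yeast strain, without naming the strain or the replicate number, while its methods name only L51 for oxygen and MHY100 for heme, so that a strain difference between replicate numbers was not tested.

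Yeast makes its amino acids through pathways whose enzymes are largely under general amino acid control. When any of several amino acids runs short, uncharged tRNA activates the kinase Gcn2, translation of *GCN4* mRNA rises, and the activator Gcn4 turns on enzyme genes in many pathways at once. Pathway-specific control lies on top of this, with Leu3 acting on leucine genes when its ligand α-isopropylmalate builds up, Lys14 acting on lysine genes with a pathway intermediate as signal, and the Arg80, Arg81 and Mcm1 complex repressing arginine genes when arginine is plentiful.

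The HAP1 transcript was lower in *Δhap1* cells than in *HAP1* cells in air, at 5.80, 6.11 and 6.13 against 9.77, 10.32 and 9.79 (replicates 1, 2 and 3), a difference of -3.95. A set of 3 arrays stood apart from their groups in the oxygen marker genes *ANB1*, a hypoxic gene that is low in air, and *CYC1*, the aerobic cytochrome c gene. Replicate 3 at 1.5 h had *ANB1* at 9.02, against 9.63, 10.46 and 9.63 in air. Replicate 3 with cobalt had *ANB1* at 12.22 and *CYC1* at 9.41, where the other cobalt arrays had *ANB1* at 9.64 and 9.49 and *CYC1* at 13.51 and 13.46. Replicate 3 of *HAP1* cells at 6 h had *ANB1* at 13.02, against 14.31 and 14.33. By these markers the array labelled replicate 3 with cobalt was like the anaerobic arrays and the one labelled replicate 3 at 1.5 h like the aerobic ones. Whether labels were exchanged was not tested. The labels were kept, and this doubt applies to every replicate 3 value of those conditions. Comparisons with all arrays come first below. Without these 3 arrays, the members called and those that turned in direction are named, with values for part of them. The share of genes above the 95th percentile of the *Schizosaccharomyces pombe* probe sets on the same array ran from 66.2% to 94.1%, and was lowest on replicate 3 of *Δhap1* cells at 6 h (66.2%) and on replicate 2 of *HAP1* cells in air (67.6%). The cobalt arrays are labelled with the *HAP1* plasmid in one field and with the empty vector in another, and their *HAP1* values were 10.46, 10.23 and 10.98. In *HAP1* cells the *HAP1* transcript was 1.38 higher at 1.5 h and 1.26 higher at 6 h than in air (limma, adjusted p = 0.253 and 0.115). Without the 3 arrays these were 1.98 and 1.46 (adjusted p = 0.00376 and 0.00791). In *Δhap1* cells the 6 h difference was 0.11. The part of the *HAP1* level in differences between genotypes was not tested. Intensities are averages over a culture, in which less RNA per cell and fewer expressing cells cannot be told apart.

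All 35 enzyme genes were above that *S. pombe* percentile on all 18 L51 arrays, and as a list they varied less between the L51 conditions than all genes did. The median distance between the lowest and the highest of the 6 L51 condition means was 0.52 on the log2 scale for the 35 genes and 0.87 for all genes. The median distance between the lowest and the highest of the 18 arrays was 1.55 for the 35 genes and 2.05 for all genes. The 35 genes were also bright, all above the median gene in mean L51 intensity, at a median percentile of 88.9. The part of this brightness in their evenness beside all genes was not tested. Over all 9 comparisons, limma with Benjamini-Hochberg adjustment over all genes called 2 of the 35: *BAT2*, the cytosolic branched-chain aminotransferase, and *LEU9*, an α-isopropylmalate synthase. The map of differences by array shows both the overall evenness of the list and the few arrays that carry most of its spread.

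**Figure D1:**
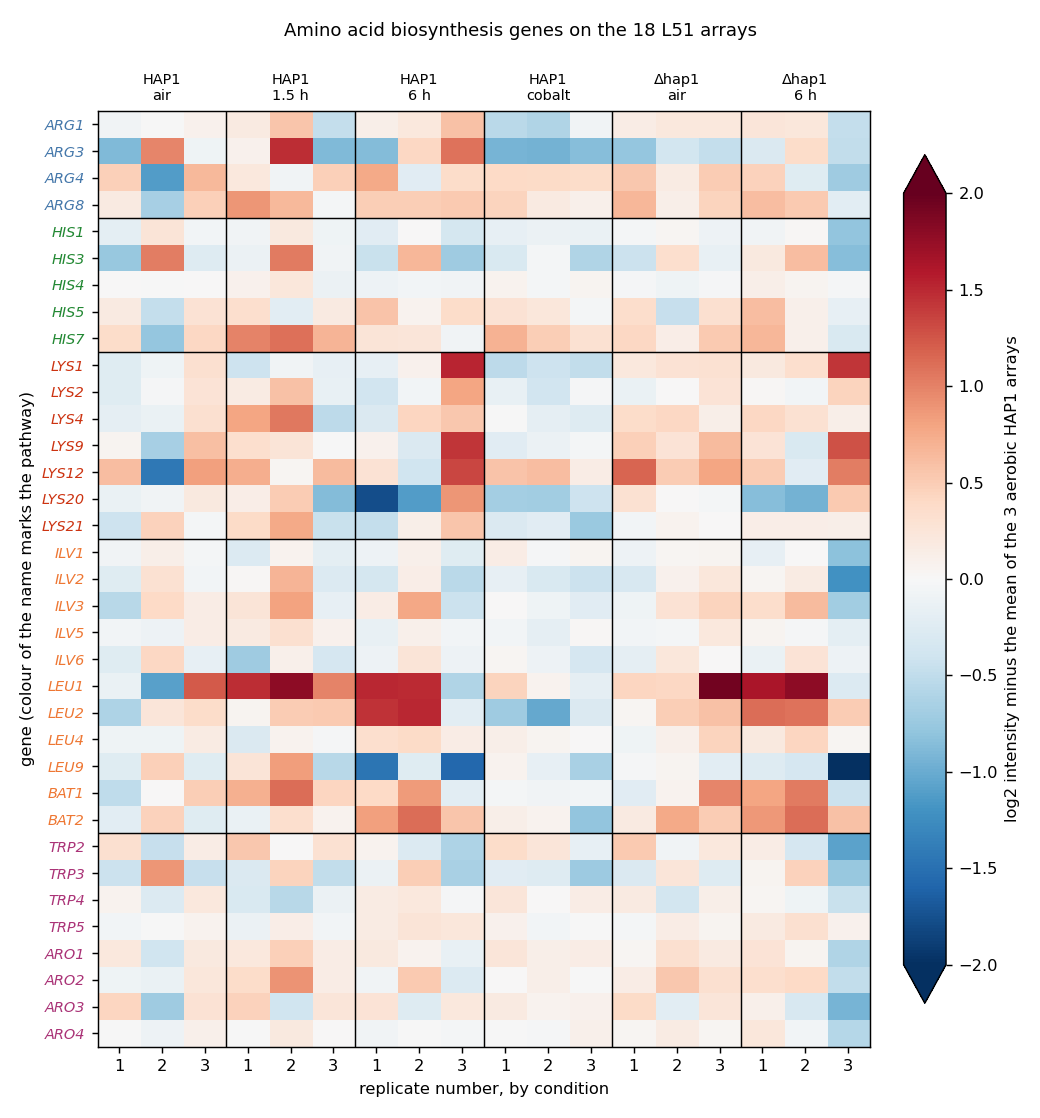
Heat map of the 35 amino acid biosynthesis genes (rows, names coloured by pathway) on the 18 L51 arrays (columns, grouped by condition), with colour giving the log2 intensity minus the mean of the 3 aerobic *HAP1* arrays and limited at 2 either way. The lysine genes are high on replicate 3 of *HAP1* cells at 6 h, where 7 of 7 lie above their own mean over the arrays, and the *HIS4* row is nearly flat, with a range of 0.34.

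*BAT2* (YJR148W) carries out the last step of valine, isoleucine and leucine synthesis in the cytosol and the first step of their breakdown. In *HAP1* cells *BAT2* read 11.14, 11.80 and 11.10 in air, 11.21, 11.68 and 11.41 after 1.5 h without oxygen, and 12.16, 12.47 and 11.90 after 6 h. With cobalt *BAT2* read 11.46, 11.42 and 10.56. In *Δhap1* cells *BAT2* read 11.53, 12.10 and 11.86 in air and 12.21, 12.47 and 11.94 after 6 h without oxygen. All 6 arrays at 6 h thus lay above all 3 arrays of *HAP1* cells in air and all 3 at 1.5 h, and only the aerobic *Δhap1* arrays reached into the range of the 6 h arrays.

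From 1.5 h to 6 h *BAT2* rose by 0.74 (SE 0.22, adjusted p = 0.0369), a 1.68-fold change, and it was higher in all 3 same-numbered pairs, by 0.95, 0.79 and 0.49. Between *HAP1* cells in air and *Δhap1* cells at 6 h *BAT2* rose by 0.86 (adjusted p = 0.0308), a 1.82-fold change, with pairs at 1.07, 0.67 and 0.84. Both calls of *BAT2* were lost in a fit with no replicate block (adjusted p = 0.161 and 0.174). The first was kept without the 3 arrays that stood apart (0.87, adjusted p = 0.0197) and in 13 of the 19 alternatives run. It was lost without replicate 1 (0.64, adjusted p = 0.473), without replicate 2 (0.72, adjusted p = 0.193) and without the 6 h array of replicate 3 alone (0.77, adjusted p = 0.0514). The second was lost when any one replicate number was left out (adjusted p = 0.0721 to 0.324), and without replicate 3 of *Δhap1* cells at 6 h (adjusted p = 0.103). The 6 h difference in *HAP1* cells was of the same size, 0.83 (95% interval 0.37 to 1.29), but missed the threshold (adjusted p = 0.0639), and without the 3 arrays that stood apart it was 0.88 (adjusted p = 0.0362). These comparisons share arrays with one another, and their values are set side by side, not as repeats.

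*BAT2* was the only member to differ between *HAP1* and *Δhap1* cells in air at an unadjusted p under 0.05, at 0.48 higher in *Δhap1* cells, but its adjusted p was 0.999. Within *Δhap1* cells the 6 h difference of *BAT2* was 0.38 (95% interval -0.08 to 0.84, adjusted p = 0.244), with the pairs at 0.68, 0.37 and 0.08. The 6 h change of *BAT2* in *Δhap1* cells minus that in *HAP1* cells was -0.45 (95% interval -1.10 to 0.20, adjusted p = 0.931), so a dependence of this change on Hap1 was not established. In MHY100, *BAT2* read 8.13, 8.04 and 8.47 without enough heme and 7.55, 7.71 and 8.07 with it. The 2 heme groups of *BAT2* overlapped, at a difference of 0.44 (95% interval -0.01 to 0.89, adjusted p = 0.276).

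*LEU9* (YOR108W) makes α-isopropylmalate, the first committed product of leucine synthesis and the ligand of Leu3, as the minor partner of *LEU4*. In *HAP1* cells *LEU9* read 12.05, 12.77 and 12.04 in air, 12.55, 13.13 and 11.73 at 1.5 h, and 10.83, 12.04 and 10.71 at 6 h. With cobalt *LEU9* read 12.36, 12.12 and 11.64. In *Δhap1* cells *LEU9* read 12.26, 12.34 and 12.07 in air and 12.03, 11.95 and 9.77 at 6 h. The 6 h arrays lay below the arrays in air without cobalt of the same genotype, without overlap in both *HAP1* and *Δhap1* cells. The gap was narrow, as the nearest arrays both read 12.04 after rounding in *HAP1* cells and 12.03 and 12.07 in *Δhap1* cells. Replicate 3 of *Δhap1* cells at 6 h was the lowest of all 18.

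From 1.5 h to 6 h *LEU9* fell by 1.27 (SE 0.38, adjusted p = 0.0412), with the pairs at -1.72, -1.09 and -1.02, although replicate 2 at 6 h lay above replicate 3 at 1.5 h. That call of *LEU9* was lost with no replicate block (adjusted p = 0.189), without replicate 1 (-1.05, adjusted p = 0.473), without replicate 2 (-1.37, adjusted p = 0.153) and without the 3 arrays that stood apart (-1.40, adjusted p = 0.0685), of which the 6 h array alone was enough (-1.33, adjusted p = 0.0587). It was also just lost under quantile and cyclic loess scaling (adjusted p = 0.0501 and 0.0564). Against air the difference of *LEU9* at 6 h was -1.09 in *HAP1* cells (95% interval -1.91 to -0.27, adjusted p = 0.157), with the pairs at -1.22, -0.73 and -1.33. In *Δhap1* cells it was -0.98 (95% interval -1.80 to -0.15, adjusted p = 0.108), with the pairs at -0.23, -0.39 and -2.30. All 6 same-numbered pairs were thus lower at 6 h than in air, and neither comparison with air passed the threshold. In MHY100, *LEU9* read 7.72, 7.50 and 8.23 without enough heme and 8.07, 7.76 and 7.64 with it, a difference of -0.01.

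The 2 genes each have a partner enzyme for the same reaction on the list, and neither partner was called. *LEU4* (YNL104C), the main α-isopropylmalate synthase, read 13.61, 13.61 and 13.85 in air, 13.40, 13.76 and 13.67 at 1.5 h and 14.02, 14.08 and 13.84 at 6 h in *HAP1* cells. *LEU4* was thus 0.37 higher at 6 h than at 1.5 h, without overlap (adjusted p = 0.185), where *LEU9* was lower. *BAT1* (YHR208W), the mitochondrial branched-chain aminotransferase, read 12.42, 12.93 and 13.42 in air, 13.63, 14.04 and 13.35 at 1.5 h and 13.32, 13.77 and 12.72 at 6 h. *BAT1* was highest at 1.5 h in replicates 1 and 2, and in replicate 3 it was higher in air than at either time. *LEU4* and *BAT1* were picked for description after their values were seen, as the partners of the called genes. The plot of branched-chain genes by condition sets these 4 genes beside *LEU1* and *LEU2*.

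**Figure D2:**
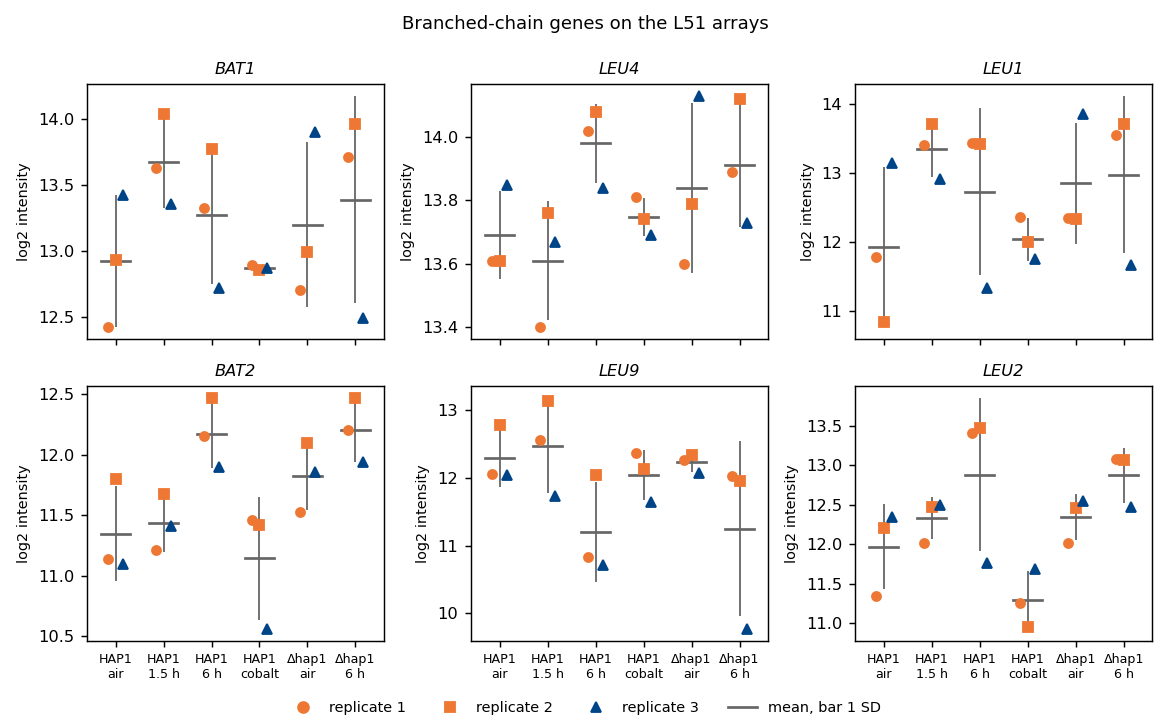
Log2 intensity (vertical axes) of *BAT1*, *BAT2*, *LEU4*, *LEU9*, *LEU1* and *LEU2* in the 6 L51 conditions (horizontal axes), with 1 symbol per replicate number and the mean ± 1 SD of 3 arrays beside them. *BAT2* at 6 h lies above *HAP1* cells in air on every array, and replicate 3 goes against replicates 1 and 2 at 6 h for *LEU1*, *LEU2* and *BAT1*.

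After *LEU4* and *LEU9*, leucine synthesis runs through *LEU1*, the iron-sulfur isopropylmalate isomerase, and *LEU2*, the β-isopropylmalate dehydrogenase. *LEU2* (YCL018W) read 11.35, 12.21 and 12.34 in *HAP1* cells in air, 12.02, 12.47 and 12.49 at 1.5 h, and 13.41, 13.47 and 11.76 at 6 h. With cobalt *LEU2* read 11.25, 10.95 and 11.68. In *Δhap1* cells *LEU2* read 12.01, 12.46 and 12.55 in air and 13.08, 13.06 and 12.47 at 6 h. *LEU2* had the widest spread of condition means of the 35 genes, 1.59 from cobalt (11.29 ± 0.37, SD, n = 3) to 6 h in *HAP1* cells (12.88 ± 0.97, SD, n = 3). Replicate 3 of *HAP1* cells at 6 h, 1 of the 3 arrays that stood apart, was low, and the 6 h and aerobic arrays overlapped in both *HAP1* and *Δhap1* cells.

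The 6 h difference of *LEU2* in *HAP1* cells was 0.91 (95% interval 0.02 to 1.81, adjusted p = 0.282), with the pairs at 2.06, 1.26 and -0.58. Without the 3 arrays that stood apart it was 1.50 (adjusted p = 0.0207). In *Δhap1* cells the pairs were 1.07, 0.60 and -0.08. The *Δhap1* arrays at 6 h all lay above *HAP1* cells in air, at a difference of 0.90 (adjusted p = 0.197). With cobalt the difference of *LEU2* was -0.67. These are values of a gene that is mutant in L51 and present in a further copy, and the share of each in the signal was not tested.

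*LEU1* (YGL009C), described after its values were seen, showed the same split between replicates. In *HAP1* cells *LEU1* read 11.79, 10.84 and 13.15 in air, 13.41, 13.71 and 12.92 at 1.5 h and 13.44, 13.42 and 11.33 at 6 h. The same-numbered pairs of *LEU1* from air to 6 h were 1.66, 2.58 and -1.82 in *HAP1* cells and 1.21, 1.37 and -2.20 in *Δhap1* cells. At 1.5 h *LEU1* had the largest difference from air of the 35 genes, 1.43 (SE 0.71), and it missed the threshold with the 3 arrays that stood apart and without them (1.79, adjusted p = 0.158).

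None of the remaining branched-chain genes was called in any comparison, and their fitted 6 h differences from air lay between -0.33 and 0.17. In *HAP1* cells the differences from air were -0.08 for *ILV1* (threonine deaminase), -0.25 for *ILV2* and 0.02 for *ILV6* (the catalytic and regulatory subunits of acetolactate synthase), -0.03 for *ILV5* (acetohydroxyacid reductoisomerase) and 0.17 for *ILV3* (dihydroxyacid dehydratase). The corresponding differences in *Δhap1* cells were -0.32, -0.33, 0.00, -0.09 and -0.12. These are averages over replicates, and over all 11 branched-chain genes the medians of the same-numbered pairs went opposite ways. They were 0.40, 0.38 and -0.48 in *HAP1* cells and 0.36, 0.33 and -0.89 in *Δhap1* cells. The lowest values of *ILV1*, *ILV2*, *ILV3*, *ILV5* and *LEU9* all came from replicate 3 of *Δhap1* cells at 6 h, the array with the lowest share of genes above the *S. pombe* level, and the part of that array's quality in these values was not tested.

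Turning to whole comparisons, limma called 0 of the 35 genes at 6 h against air in *HAP1* cells, where 2.15% of all 5449 genes passed, and 3 members had an unadjusted p under 0.05, against 17.1% of all genes. Groups did not overlap for 6 members, against 11.7% of all genes, with *ARG1*, *ARG8*, *BAT2* and *TRP5* higher and *HIS4* and *LEU9* lower at 6 h. The 95% interval lay wholly within a 2-fold change either way for 23 of the 35 genes, against 46.5% of all genes. Of the 35 genes, 24 were higher at 6 h, beside 41.3% of all genes. The members' median was 0.01, 0.27 and -0.15 in the 3 same-numbered pairs. Their fitted median was 0.12, beside a median of -0.10 over all genes. The deposited values thus had a shift in the median gene between these conditions, and under quantile and cyclic loess scaling, which bring the all-gene median to between -0.03 and 0.02, the median of the 35 genes was 0.15 and 0.14.

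In *Δhap1* cells at 6 h against air, limma called 0 of the 35 genes, where 10.9% of all genes passed, and 2 members had an unadjusted p under 0.05, against 30.6% of all genes. Groups did not overlap for 3 members (*HIS4* and *LYS21* higher, *LEU9* lower), against 20.8% of all genes. The median of the members was -0.09 beside -0.30 over all genes, and this direction turned under quantile and cyclic loess scaling, to 0.07 and 0.12. In the 3 same-numbered pairs the members' median was 0.15, 0.03 and -0.56, and replicate 3 was the one below 0. The 95% interval lay within a 2-fold change for 24 members, against 39.1% of all genes. For the 6 h change of the 35 genes set between the genotypes, limma called 0, as it called 0 of all genes, and 0 had an unadjusted p under 0.05, against 1.74% of all genes. The interval of this difference lay within a 2-fold change for 14 members, against 27.2% of all genes. With *HAP1* cells in air as the reference, *Δhap1* cells at 6 h had 1 member called, *BAT2*, where 7.05% of all genes passed, and 4 members without overlap (15.6% of all genes).

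**Figure D3:**
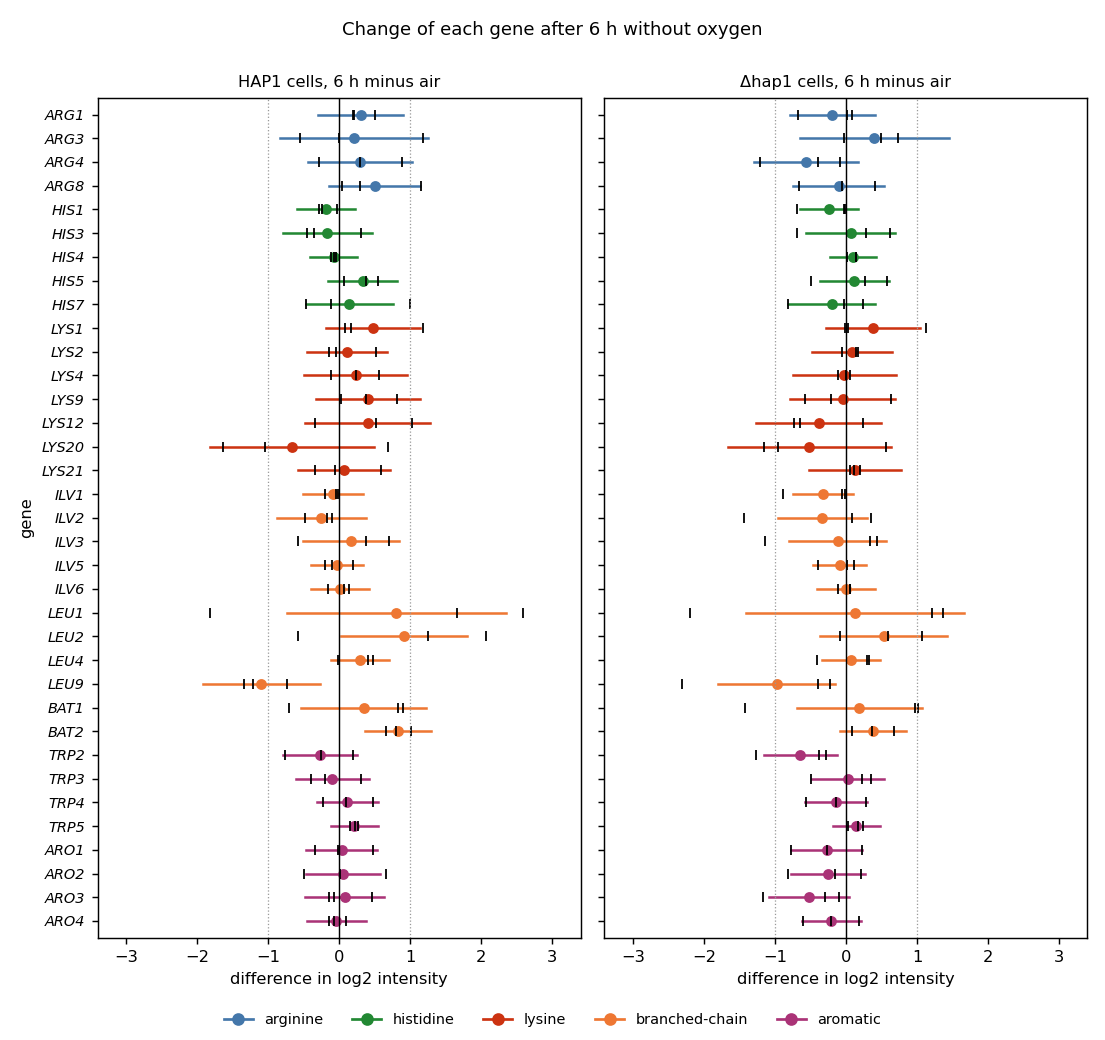
Log2 difference between 6 h without oxygen and air (horizontal axis) for each of the 35 genes (vertical axis), in *HAP1* and *Δhap1* cells, as the fitted difference (dot), its 95% interval (bar) and the 3 same-numbered pairs (ticks), with dotted lines at a 2-fold change. *LEU9* is lowest in both genotypes, at -1.09 and -0.98, and *BAT2* and *LEU2* are the highest in *HAP1* cells, at 0.83 and 0.91.

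At 1.5 h without oxygen, limma called 0 of the 35 genes, where 0.0367% of all genes passed, and 1 member, *HIS7*, had an unadjusted p under 0.05 (15.7% of all genes) and no overlap (8.99% of all genes). At 1.5 h 27 of the 35 were higher than in air with a median of 0.19, beside 61.4% of all genes and a median of 0.14. From 1.5 h to 6 h, limma called 2 of the 35, *BAT2* up and *LEU9* down, where 15.3% of all genes passed, 3.56% up and 11.7% down. Groups did not overlap for 6 members between those times (22.5% of all genes), with *LEU4*, *BAT2*, *TRP4* and *TRP5* higher and *HIS7* and *ARO4* lower at 6 h.

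Without the 3 arrays that stood apart, the members called from 1.5 h to 6 h were 5 (*LEU2* and *BAT2* higher, *LYS4*, *LYS20* and *LYS21* lower), where 26.6% of all genes passed, and their median was -0.21 in place of -0.08. At 6 h against air in *HAP1* cells 2 members were then called (*LEU2* and *BAT2*, both higher), where 7.12% of all genes passed. Of the 35, 21 were higher, with a median of 0.08 beside -0.08 over all genes. The differences of 5 members turned sign there (*ARG3*, *LYS2*, *LYS21*, *ILV5* and *ARO3*), none of them called with or without the 3 arrays. At 1.5 h against air 0 members were called, where 8.48% of all genes passed, and the median was 0.26. There the sign turned for *HIS1* and *LYS20*, and with cobalt for *LYS9*, *ILV1*, *BAT2*, *ARO2* and *ARO4*. From 1.5 h to 6 h it turned for *ARG1*, *ARG8* and *LYS9*, and in the 6 h change between the genotypes for *LYS1* and *LYS2*. None of these was called in its comparison with or without the 3 arrays. *BAT2* stayed called for *Δhap1* cells at 6 h against *HAP1* cells in air (11.2% of all genes).

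Without Hap1 in air, limma called 0 of the 35 genes, where 0.0184% of all genes passed, and 1 member, *BAT2*, had an unadjusted p under 0.05, against 1.39% of all genes. In that comparison groups did not overlap for *ARG1*, higher in *Δhap1* cells, and *HIS4*, lower, against 3.41% of all genes. With cobalt, limma called 0 of the 35, where 0.147% of all genes passed, and 0 had an unadjusted p under 0.05, against 10.2% of all genes. The lysine genes *LYS1* and *LYS20* lay below air on all cobalt arrays, against 7.76% of all genes without overlap in either direction. The cobalt differences of *LYS20* were -0.55, -0.62 and -0.61 in the 3 pairs, including the replicate whose oxygen markers stood apart. Under both other scalings no member was free of overlap in the cobalt comparison, and the share of all genes under them is not given here.

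Among the arginine genes, *ARG3* (YJL088W), the ornithine carbamoyltransferase, had the widest spread of condition means. *ARG3* read 10.68, 12.53 and 11.47 in *HAP1* cells in air, 11.64, 13.03 and 10.67 at 1.5 h, and 10.69, 11.98 and 12.65 at 6 h. With cobalt *ARG3* read 10.63, 10.62 and 10.71, and in *Δhap1* cells 10.79, 11.20 and 11.09 in air and 11.27, 11.93 and 11.07 at 6 h. The 3 cobalt arrays were close together at the low end, while the *HAP1* arrays in air and without oxygen spread widely within each condition. The cobalt difference of *ARG3* was -0.91 (95% interval -1.95 to 0.14, adjusted p = 0.472), with an adjusted p of 0.252 without the 3 arrays that stood apart. *ARG1* (argininosuccinate synthase), *ARG4* (argininosuccinate lyase) and *ARG8* (the acetylornithine aminotransferase of mitochondria) differed from air at 6 h by 0.31, 0.30 and 0.50 in *HAP1* cells and by -0.19, -0.57 and -0.10 in *Δhap1* cells, with no call in either genotype. Without the 3 arrays that stood apart the 6 h difference of *ARG3* in *HAP1* cells was -0.29 in place of 0.21, and neither passed. Over all arrays *ARG4* had the largest difference in the 6 h change between the genotypes of the 35 genes in size, -0.86. It did not pass. Without the 3 arrays *LEU1* (-1.53) and *LEU2* (-0.97) were larger in size than *ARG4* (-0.86), and none of them passed.

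*HIS4* (YCL030C), which encodes an enzyme of 3 steps in histidine synthesis and is a mutant allele in both strains, was the most even of the 35 genes. *HIS4* read 14.49, 14.47 and 14.48 in *HAP1* cells in air, 14.56, 14.71 and 14.36 at 1.5 h, 14.38, 14.43 and 14.41 at 6 h, and 14.55, 14.44 and 14.54 with cobalt. In *Δhap1* cells *HIS4* read 14.45, 14.39 and 14.45 in air and 14.59, 14.54 and 14.46 at 6 h. Condition means of *HIS4* lay within 0.14 of one another, and the 18 arrays within 0.34. The 6 h difference of *HIS4* was -0.08 in *HAP1* cells (95% interval -0.41 to 0.25) and 0.10 in *Δhap1* cells (95% interval -0.23 to 0.43). *HIS4* lay close to the top of the scale, where the highest value of any gene was 15.06, and whether its range was compressed there was not tested.

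*HIS7* (YBR248C), the imidazole glycerol phosphate synthase, had the widest spread of condition means among the histidine genes. *HIS7* read 11.17, 10.03 and 11.21 in *HAP1* cells in air, 11.80, 11.90 and 11.49 at 1.5 h and 11.06, 11.04 and 10.74 at 6 h. With cobalt *HIS7* read 11.50, 11.30 and 11.11, and in *Δhap1* cells 11.22, 10.93 and 11.32 in air and 11.46, 10.90 and 10.50 at 6 h. The 1.5 h arrays were above all 6 h arrays of *HAP1* cells and all those in air without cobalt. *HIS7* was 0.93 higher at 1.5 h than in air (95% interval 0.31 to 1.54, adjusted p = 0.253), 1.07 without the 3 arrays that stood apart (adjusted p = 0.0838), and 0.78 lower at 6 h than at 1.5 h (adjusted p = 0.0744). Replicate 2 in air, an array with a low share of genes above the *S. pombe* level, held the lowest *HIS7* value and gave the largest of the 3 pair differences at 1.5 h, 1.87 against 0.63 and 0.28. *HIS1* (ATP phosphoribosyltransferase), *HIS3* (imidazoleglycerol-phosphate dehydratase) and *HIS5* (histidinol-phosphate aminotransferase) differed from air at 6 h by -0.19, -0.17 and 0.33 in *HAP1* cells.

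The lysine genes were not called in any comparison over all arrays. Without the 3 arrays that stood apart, 3 of the 7 were called lower at 6 h than at 1.5 h, *LYS20* at -1.76 (adjusted p = 0.00865), *LYS21* at -0.75 (adjusted p = 0.0439) and *LYS4* at -0.85 (adjusted p = 0.0465), where 26.6% of all genes passed in either direction. The median of the 7 lysine genes between those times went from -0.08 over all arrays to -0.59 without the 3. *LYS1* (YIR034C), the saccharopine dehydrogenase of the final step, read 12.33, 12.49 and 12.90 in *HAP1* cells in air, 12.16, 12.51 and 12.41 at 1.5 h, 12.41, 12.66 and 14.09 at 6 h, and 12.05, 12.16 and 12.08 with cobalt. In *Δhap1* cells *LYS1* read 12.79, 12.87 and 12.88 in air and 12.77, 12.91 and 14.01 at 6 h. Replicate 3 at 6 h was thus far above the rest in both genotypes. The pairs of *LYS1* from air to 6 h were 0.08, 0.17 and 1.18 in *HAP1* cells and -0.02, 0.03 and 1.13 in *Δhap1* cells.

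*LYS9*, the other saccharopine dehydrogenase, was also highest on replicate 3, at 13.12, 12.75 and 14.46 at 6 h in *HAP1* cells and 13.30, 12.73 and 14.30 in *Δhap1* cells. Over the 7 lysine genes, 5 had their highest value of all 18 L51 arrays on replicate 3 of *HAP1* cells at 6 h. On that array 7 of 7 lysine genes lay above their own mean over the arrays, by a median of 0.90, while 2 of 11 branched-chain genes did, at a median of -0.41. On replicate 3 of *Δhap1* cells at 6 h 6 of 7 lysine genes lay above their own mean, by a median of 0.60, and 2 of 11 branched-chain genes did, at a median of -0.73. Quantile scaling left the lysine medians on these 2 arrays at 0.96 and 0.82 and the branched-chain medians at -0.19 and -0.31, and cyclic loess scaling gave the same directions. By their hybridization times these 2 arrays shared a round with the cobalt array of replicate 3, on which *LYS1* read 12.08 and was not high, and the part of the growth batch in this pattern was not tested.

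*LYS20* and *LYS21* encode 2 nearly identical homocitrate synthases of the first step, so that signal could be shared between their probe sets and each is uncertain as a single gene. *LYS20* (YDL182W), described after its values were seen, read 12.50, 12.56 and 12.82 in *HAP1* cells in air and 10.86, 11.51 and 13.51 at 6 h. In *Δhap1* cells *LYS20* read 12.93, 12.64 and 12.58 in air and 11.78, 11.68 and 13.15 at 6 h. Replicates 1 and 2 were thus lower at 6 h than in air in both genotypes, and replicate 3 was higher in both. Without the 3 arrays that stood apart, the 6 h difference of *LYS20* in *HAP1* cells was -1.27 (adjusted p = 0.0618) in place of -0.66. *LYS21* differed from air at 6 h by 0.07 in *HAP1* cells and 0.12 in *Δhap1* cells, and by -0.19 in *HAP1* cells without the 3 arrays. *LYS2* (aminoadipate reductase), *LYS4* (homoaconitase) and *LYS12* (homoisocitrate dehydrogenase) differed from air at 6 h by 0.11, 0.23 and 0.40 in *HAP1* cells, with no call, and *LYS2* by -0.09 without the 3 arrays.

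**Figure D4:**
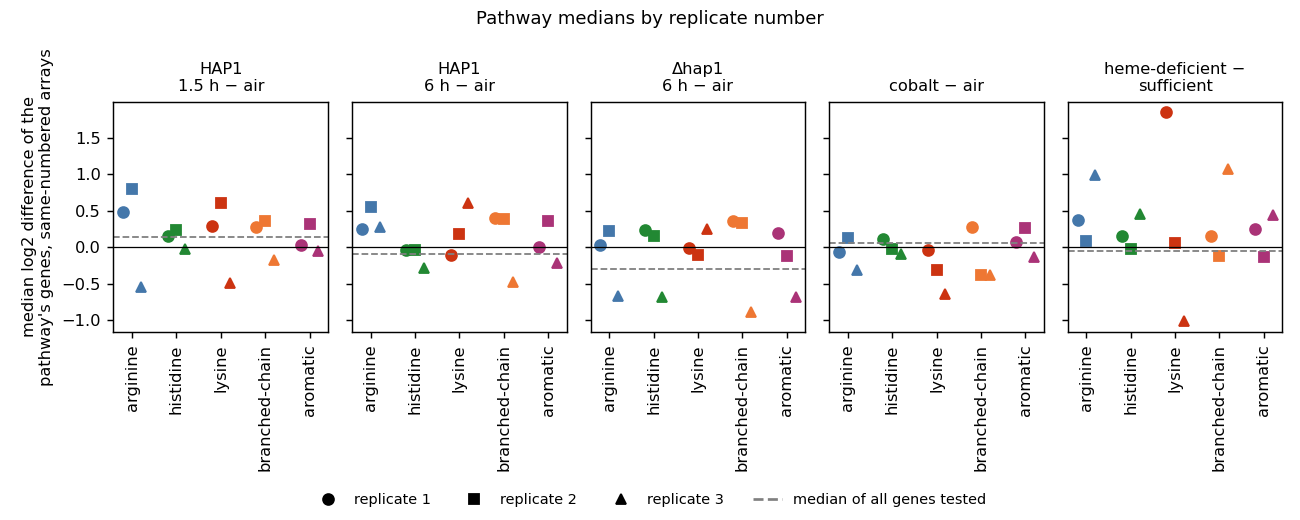
Median log2 difference (vertical axis) over the genes of each pathway between same-numbered arrays, by replicate number, in 5 comparisons (panels), with a dashed line for the median over all genes. At 6 h in *HAP1* cells the lysine median is -0.11, 0.17 and 0.60 and the branched-chain median 0.40, 0.38 and -0.48 in replicates 1, 2 and 3.

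Among the aromatic genes, *TRP2* (YER090W), a subunit of anthranilate synthase, had the widest spread of condition means. *TRP2* read 12.39, 11.60 and 12.21 in *HAP1* cells in air, 12.60, 12.08 and 12.37 at 1.5 h, and 12.14, 11.80 and 11.45 at 6 h. With cobalt *TRP2* read 12.44, 12.31 and 11.91, and in *Δhap1* cells 12.59, 12.00 and 12.27 in air and 12.21, 11.73 and 11.00 at 6 h. The groups overlapped in each of the 7 L51 comparisons of 2 groups. The 6 h difference of *TRP2* in *Δhap1* cells was -0.64 (95% interval -1.16 to -0.12, adjusted p = 0.0970). *TRP3* (the other anthranilate synthase subunit), *TRP4* (anthranilate phosphoribosyltransferase) and *TRP5* (tryptophan synthase) differed from air at 6 h by -0.10, 0.12 and 0.21 in *HAP1* cells. Upstream of tryptophan, *ARO3* and *ARO4* (the first enzymes of the shikimate pathway, feedback-inhibited by phenylalanine and by tyrosine), *ARO1* (a multifunctional enzyme) and *ARO2* (chorismate synthase) differed by 0.08, -0.04, 0.04 and 0.06. In *Δhap1* cells the same 4 genes differed by -0.52, -0.21, -0.27 and -0.25, and 6 of the 8 aromatic genes had their lowest value of all 18 arrays on replicate 3 of *Δhap1* cells at 6 h.

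In MHY100, limma called 0 of the 35 genes between heme-deficient and heme-sufficient cells, where 1.64% of all 5656 genes passed, and 3 members had an unadjusted p under 0.05, against 18.7% of all genes. The 95% interval lay wholly within a 2-fold change either way for 19 of the 35 genes, against 76.9% of all genes. Here the members were less even than all genes, with a median SE of 0.24 beside 0.19. Of the 35 genes, 31 were higher without enough heme at a median of 0.38, beside 43% of all genes at a median of -0.06. Quantile and cyclic loess scaling gave members' medians of 0.45 and 0.42. The median was 0.34, -0.06 and 0.46 in the 3 same-numbered pairs, and replicate 2 was the one below 0. One heme-sufficient array is numbered 1 in its title and 3 in its source label, so the first and the third of these pairs are uncertain. Groups did not overlap for *ARG1*, *ARG4* and *LEU2*, all higher without enough heme, against 24.6% of all genes without overlap in either direction and 7.9% in this direction.

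*ARG1* (YOL058W) had the largest heme difference of the 35 genes and is described for that reason. *ARG1* read 7.82, 7.20 and 9.42 in heme-deficient and 6.41, 6.76 and 6.41 in heme-sufficient cells. The groups were separate, replicate 3 was far above the other heme-deficient arrays, and the difference was 1.62 (95% interval 0.49 to 2.76, adjusted p = 0.187). *LEU2* read 9.12, 9.26 and 10.42 against 9.03, 8.88 and 8.84, a difference of 0.69 (adjusted p = 0.293). The other 2 probe sets of *LEU2* on this array type gave 0.59 and 0.49. *HIS4* read 7.97, 7.71 and 8.54 against 7.83, 8.11 and 8.09, and its groups overlapped.

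The other members described array by array in L51 showed no separation of the heme groups. *ARG3* read 5.03, 4.62 and 5.36 without enough heme and 4.62, 4.68 and 4.37 with it. Its probe set was dim on this array type, at percentile 10.8 of all genes by mean intensity, which limits what its values can show. *HIS7* read 7.74, 7.53 and 7.85 against 7.72, 8.07 and 8.02, and *TRP2* read 8.45, 8.78 and 9.37 against 9.27, 9.28 and 9.38. The groups overlapped for all 3 of these genes, and *TRP2*, at -0.44, had the lowest heme difference of the 35.

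The lysine genes again split by array. *LYS1* read 11.87, 10.07 and 9.30 in heme-deficient and 9.29, 10.06 and 10.34 in heme-sufficient cells, and *LYS9* read 10.60, 9.84 and 7.99 against 8.27, 9.27 and 9.58. Heme-deficient replicate 1 was high and replicate 3 low for both genes. On replicate 1 of the heme-deficient cells 7 of 7 lysine genes lay above their own mean, by a median of 1.32, and on replicate 3, 0 of 7 did, at a median of -0.86. Branched-chain genes stood the other way on that last array, where 11 of 11 lay above their own mean by a median of 0.63. Quantile scaling gave lysine medians of 1.31 and -0.93 on these 2 arrays and a branched-chain median of 0.62. The pathway median of lysine was thus 1.85, 0.05 and -1.01 in the 3 pairs numbered by title, of which the first and the third are uncertain as said, with 7 of 7 fitted differences above 0 and none called.

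**Figure D5:**
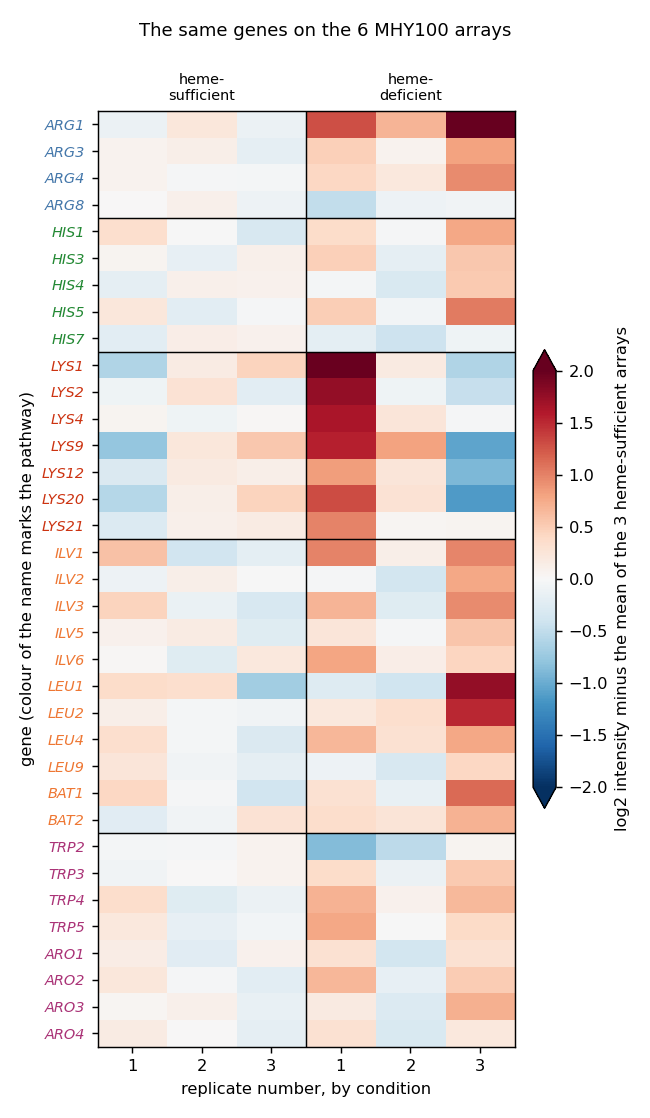
Heat map of the 35 genes (rows, names coloured by pathway) on the 6 MHY100 arrays (columns), with colour giving the log2 intensity minus the mean of the 3 heme-sufficient arrays. *ARG1* on heme-deficient replicate 3 is 9.42 against 6.52 ± 0.20 (SD, n = 3) in heme-sufficient cells, and lysine genes are high on heme-deficient replicate 1 and low on replicate 3.

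The transcript of the general activator *GCN4* did not pass the test in any comparison. *GCN4* read 14.03, 13.85 and 14.07 in *HAP1* cells in air, 14.07, 14.16 and 14.07 at 1.5 h, 13.74, 13.78 and 13.91 at 6 h, and 14.08, 14.11 and 13.92 with cobalt. In *Δhap1* cells *GCN4* read 13.98, 14.11 and 14.05 in air and 14.05, 13.71 and 13.64 at 6 h. In MHY100 *GCN4* read 11.41, 11.26 and 11.52 without enough heme and 11.51, 11.30 and 11.32 with it. The differences of *GCN4* lay between -0.29 and 0.12, and since Gcn4 is controlled mainly in translation, its mRNA does not measure its activity.

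Of 10 regulators of these pathways, all measured, limma called 2 over all arrays. Both were lower from 1.5 h to 6 h in *HAP1* cells, where 11.7% of all genes were called lower. *LEU3*, the activator of leucine genes, read 9.67, 9.72 and 9.12 at 1.5 h and 8.35, 8.32 and 8.69 at 6 h, and fell by 1.05 (SE 0.29, adjusted p = 0.0327). *ARG81*, a regulator of arginine genes, read 9.49, 10.11 and 8.18 at 1.5 h and 7.54, 7.61 and 7.83 at 6 h, and fell by 1.60 (SE 0.43, adjusted p = 0.0317). Without the 3 arrays that stood apart *LEU3* fell by 1.36 (adjusted p = 0.0149) and *ARG81* by 2.22 (adjusted p = 0.00898). Neither group pair overlapped, and in air the same genes read 8.63, 7.59 and 8.88 for *LEU3* and 8.53, 8.75 and 8.40 for *ARG81*. Without the 3 arrays limma made further calls. *BAS1* was at -1.61 from 1.5 h to 6 h (adjusted p = 0.000824, 26.6% of all genes called). At 1.5 h against air *BAS1* (1.20), *LEU3* (1.41) and *ARG82* (-1.16) were called (adjusted p = 0.0097 to 0.0345, 8.48% of all genes). *ARG82* was also called in *Δhap1* cells at 6 h against air (-1.16, adjusted p = 0.0154, 14.1% of all genes). Against *HAP1* cells in air it was at -1.12 (adjusted p = 0.0159, 11.2%). Of 14 further enzyme genes of the same pathways, 11 were measured on the L51 arrays. Over all arrays only *HIS6*, which encodes an isomerase of histidine synthesis, was called in any L51 comparison. That call was in *Δhap1* cells at 6 h, where 10.9% of all genes passed. Without the 3 arrays *LYS5* was also called, at 1.37 from 1.5 h to 6 h (limma, adjusted p = 0.00615), where 26.6% of all genes passed. *HIS6* read 10.79, 9.16 and 10.49 in *Δhap1* cells in air and 9.47, 7.76 and 7.17 at 6 h, and fell by 2.02 (SE 0.60, adjusted p = 0.0484), lower in each of the 3 pairs although the groups overlapped. Of the 12 measured on the MHY100 arrays, 0 were called.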

How the data were processed

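RNA was measured on 18 L51 arrays and 6 MHY100 arrays, 2 Affymetrix designs, each condition in 3 replicates that the study describes as separately grown. Per the labels and the study's methods, the authors scanned the arrays with GCOS and summarised each design separately by RMA, and the deposited values are linear intensity per probe set, one column per array, all of which were used. The deposited text files of array settings were used only for hybridization times. Here log2 of the deposited intensity was taken with no offset, and 1 probe set per gene was kept. Of 10928 probe sets on the first design, 3683 had no gene name, 1746 were of *S. pombe*, 1 named several genes and 5498 named 1 *S. cerevisiae* gene. Of 9335 on the second, 2503 had no name, 328 named several genes and 6504 named 1. Arrays cannot be set on a common scale across designs, so no test or level crosses them, and their number limits the precision.

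limma 3.58.1 (lmFit, contrasts, eBayes, in R 4.3.3) tested 8 comparisons in 1 fit over the L51 arrays, with condition and replicate number as terms, because the study grew replicates in batches and formed differences within a number. The MHY100 arrays were fitted with condition alone. Residual degrees of freedom were 10 and 4. P-values were adjusted by Benjamini-Hochberg over all genes, with a threshold of 0.05. Same-numbered arrays deviated together at the median, with a correlation of their deviations of 0.56, 0.71 and 0.25 for numbers 1, 2 and 3, although single pairs fell to -0.44. The fit was also run on simulated data with independent noise on each array and no replicate effect. That run has no bearing on calls that depend on the replicate block. The members and lists were chosen with earlier results of these data known.

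Every member was accounted for. Values on each array were printed for members called in any comparison, for *HIS4* and *LEU2*, and for the member of each pathway with the widest range of L51 condition means, and genes named beyond this rule are said to have been chosen after their values were seen. Alternatives covered the replicate block, the arrays in the fit, the scaling, an offset, dim genes, probe set averaging, array weights, the variance prior, hybridization rounds and arrays left out. No sequences were used here.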

Additional observations from a re-analysis of the deposited data

Results flagged for a closer look

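The 6 h differences of *HIS4* from air were opposite in sign in *HAP1* and *Δhap1* cells, and neither was called. The same-numbered differences from air of *HIS4* were -0.11, -0.04 and -0.07 in *HAP1* cells and 0.14, 0.15 and 0.01 in *Δhap1* cells, so that all 3 pairs of one genotype were lower and all 3 of the other higher. The difference between the genotypes was 0.18 on the log2 scale, and the fitted difference did not pass (limma, adjusted p = 0.932). Of the 5449 genes tested, 49 showed such a split, so that it was not particular to *HIS4*.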

How the results depend on the processing

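No called value turned in direction. The median over the members turned, within the spread between replicates, from -0.09 to 0.07 and 0.12 in *Δhap1* cells at 6 h under quantile and cyclic loess scaling. Of the settings and results compared, 135 counts of called members stayed within 1.5 times the main count and 32 did not, while 164 medians over the members moved by less than the spread between replicates and 3 did not. The count of members called, 0 at 1.5 h against air, became 11 with array weights (35.5% of all genes called) and 0 to 3 with a replicate or array left out. At 6 h against air in *HAP1* cells, it went from 0 to 1 under quantile or cyclic loess scaling (*BAT2*, with 3.08% and 3.17% of all genes), 4 with array weights (40.2%), 2 without the 3 arrays that stood apart (7.12%) and 0 to 3 with a replicate or array left out. For *Δhap1* cells at 6 h array weights gave 3 (41.8%). Against *HAP1* cells in air, *Δhap1* cells at 6 h had 1 member called, which became 0 with no replicate block, with only the compared groups in the fit or with the hybridization round as the block, 4 with array weights (39.4%), and 0 to 2 with a replicate or array left out. For *Δhap1* against *HAP1* cells in air array weights gave 1 (1.39%). From 1.5 h to 6 h the 2 members called became 0 with no replicate block, with only the compared groups or with the round as the block, 1 under cyclic loess (9.4%), 12 with array weights (51.4%), 5 without the 3 arrays (26.6%), and 0 to 5 with a replicate or array left out. In the heme comparison 0 members called became 3 with the round as the block (17.3%, in 5 arrays, since 1 had no time), and a replicate block for pairing left 0 members called. The shares of all genes called with a replicate or array left out are not given here. The member counts of those fits are thus not read as a result about the members. The members' median moved to 0.032 for *Δhap1* against *HAP1* cells in air under cyclic loess, and ranged from -0.23 to 0.057 between 1.5 h and 6 h with a replicate or array left out.

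Counts of members without overlap became, under quantile and cyclic loess scaling, 2 and 2 for early anaerobiosis, 3 and 3 for *HAP1* cells at 6 h, 0 and 1 between genotypes in air, 0 and 0 with cobalt, and 6 and 7 in the heme comparison. For *Δhap1* cells at 6 h against *HAP1* cells in air cyclic loess gave 2. The shares of all genes without overlap under these scalings are not given here, so these counts are not read as a result about the members. The counts without overlap were not recounted with fewer arrays, where less overlap follows by construction. Unless a sentence above names one, the causes were not tested. With 3 arrays a condition, members whose interval reaches beyond a 2-fold change cannot be placed. The planned promoter search was not run. Leaving out arrays that stood apart one by one, averaging probe sets and the round threshold of 30 minutes were choices of the re-analysis, the first made after seeing the data.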

Other observations

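Within hybridization rounds, taken from array times less than 30 minutes apart, aerobic arrays and those taken at 6 h never fell together, so that the 6 h differences from air have no within-round value. With the round in place of the replicate number as the block, the 6 h difference of *BAT2* in *HAP1* cells was 1.27 (limma, adjusted p = 0.17). From 1.5 h to 6 h, 1 round held both times (replicate 2), with *BAT2* 0.79 higher, *LEU9* at -1.09 and *LEU2* 1.00 higher at 6 h. In air, all 3 rounds held both *HAP1* and *Δhap1* cells, and *BAT2* was 0.39, 0.30 and 0.75 higher in *Δhap1* cells.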
